A study of Mus musculus with 369 samples.

Results

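Cytosolic ribosomal protein genes were taken as every row of the deposited count table whose symbol begins with Rpl or Rps followed by a digit, or with Rplp followed by a digit. Of 101 symbols that match, 10 encode ribosomal S6 kinases and 6 are pseudogene rows, and both kinds were left out. This gave 85 of 23337 genes: 43 proteins of the large subunit, 30 of the small subunit, the 3 stalk proteins Rplp0, Rplp1 and Rplp2, 7 paralogs, and 2 genes whose products are not subunits (Rps19bp1 and Rpl7l1). The paralogs are Rpl3l, Rpl10l, Rpl22l1, Rpl39l, Rpl36al, Rps27l and Rps4y2. A gene was called measured at 5 CPM or more (counts per 1000000 gene counts) in at least 1 group, which 82 of the 85 reached. The 3 below it were Rpl3l, Rpl10l and Rpl39l.

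The cells were single microglia sorted from whole brains of male mice at postnatal day 7, on a C57BL/6J background, and sequenced by Smart-seq2, which reads along the whole length of polyadenylated transcripts without molecular barcodes. There were 4 groups, by genotype (wild type or Trem2 knockout) and by sort gate (CD45lowCD11b+, here called unselected, or CD45lowCD11b+Gpnmb+Clec7a+, here called gated). The sources used here do not name the knockout allele. In all, 334 cells passed all 3 quality criteria of the labels: among wild-type cells 78 unselected and 90 gated, and among knockout cells 90 unselected and 76 gated. Each group came from 1 plate and animals are not named, which makes a group 1 sample, and no test was made. Effects of plate, of genotype and of gate cannot be told apart.

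Assembly of a cytosolic ribosome begins in the nucleolus and joins ribosomal RNA with 1 copy of most ribosomal proteins. The mRNAs of these proteins belong to the most steadily expressed messages of a cell. Many of these mRNAs start with a C followed by a run of pyrimidines, the terminal oligopyrimidine (TOP) motif, through which mTOR signalling sets how well they are translated. Gpnmb+Clec7a+ microglia are known from the early postnatal white matter, where they are amoeboid and phagocytic.

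Passing cells had between 157653 and 1051282 gene counts, and all 9 microglial markers examined (P2ry12, Tmem119 and others) were at 5 CPM or more in each group. Their sum was lower in gated cells, with 46529, 31915, 46503 and 23889 CPM in the order in which 4 values are given throughout (wild type without and with selection, then knockout without and with it); the part of this in the results below was not tested. Markers of border-associated macrophages, the macrophages of meninges and perivascular spaces, summed to 350 and 452 CPM in the wild-type and knockout unselected groups. In the gated groups they summed to 1000 and 647 CPM. The sums hide how many markers were present, since 1 of the 10 reached 5 CPM in each unselected group. In gated cells 10 (wild type) and 9 (knockout) reached it. The median log2 difference of the 10, gated over unselected, was 4.52 in wild type and 3.58 in knockout. In the unselected groups 6 of the 10 (wild type) and 4 of the 10 (knockout) were at 0, Lyve1, Cd163 and F13a1 among them in the wild type. Monocyte and neutrophil markers summed to at most 5.15 CPM, and lymphocyte markers to at most 148 CPM, nearly all Cd79b. The row Rn45s, the precursor of ribosomal RNA, took 16.2%, 15.8%, 13.6% and 14.6% of summed gene counts.

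The start regions of members described below were read for the motif in its genomic form, which some of them hold. They are printed from 20 bases before to the first 20 bases after the start annotated by RefSeq on build GRCm38.p6, on the gene's own strand, with capitals marking a run of at least 6 pyrimidines that starts with C and begins within 10 bases of the start. Rpl4 and Rplp0 had the highest counts, Rps18 was among the highest per length, Rplp2 is a stalk gene, Rps6 is the target of S6 kinases, Rpl28 differed in a pair of comparisons, and Rpl26 and Rpl34 are among the subunit genes with low counts.
Rpl4: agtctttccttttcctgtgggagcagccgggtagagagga
Rplp0: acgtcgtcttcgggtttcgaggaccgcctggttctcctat
Rplp2: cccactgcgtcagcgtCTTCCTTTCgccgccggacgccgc
Rps18: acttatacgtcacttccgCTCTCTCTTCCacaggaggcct
Rps6: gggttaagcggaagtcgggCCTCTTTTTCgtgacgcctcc
Rpl28: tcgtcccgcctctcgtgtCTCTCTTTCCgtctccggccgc
Rpl34: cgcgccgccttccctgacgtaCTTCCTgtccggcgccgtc
Rpl26: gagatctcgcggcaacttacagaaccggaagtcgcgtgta

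These windows lie at chr9:64173367-64173406 (Rpl4, plus strand), chr5:115559447-115559486 (Rplp0, plus), chr7:141447631-141447670 (Rplp2, plus), chr17:33955646-33955685 (Rps18, minus), chr4:86857348-86857387 (Rps6, minus), chr7:4792945-4792984 (Rpl28, plus), chr3:130730379-130730418 (Rpl34, minus, 1 of its listed starts) and chr11:68901546-68901585 (Rpl26, plus). Entries were found for 64 of the 85 members. The run was present at a listed start of 31 of the 64 (48.4%), against 20.4% of 27025 RefSeq genes with an entry. It was found in members with high counts (Rps18) and low counts (Rpl34), and Rpl4, Rplp0 and Rpl26 did not have it at the RefSeq start. The Rpl4 window holds a run of 13 pyrimidines that begins 17 bases upstream of that start, and the GENCODE start of Rpl4 lies 12 bases upstream of it, inside the run. For Rps18, Rplp2, Rpl28 and Rps6 the GENCODE start lies 336, 281, 91 and 45 bases upstream of the RefSeq start, away from the marked run. A match is a description of these letters and depends on where the start is annotated.

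The share of a cell's gene counts that fell in the 85 genes was nearly the same in the 4 groups, at a little over 1 in 100 counts. In wild-type unselected cells it was 0.504% in the lowest cell, 1.19% at the median and 2.49% in the highest. Wild-type gated cells ranged from 0.512% over a median of 1.28% to 3.44%. Knockout unselected cells ranged from 0.496% over 1.17% to 2.90%, and knockout gated cells from 0.735% over 1.22% to 2.02%. The ranges of all 4 groups overlap, and the knockout gated cells were the most alike, with a coefficient of variation (CV, the SD over cells divided by the mean) of 0.215 against 0.295, 0.306 and 0.301 in the other groups. Over summed counts the shares were 1.227%, 1.292%, 1.208% and 1.266%. The exact 95% binomial interval of the first runs from 1.223% to 1.230%, and it covers counting error only, because amplified reads are not independent molecules.

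Both subunits held their place within that share. Large subunit genes had a median of 0.581%, 0.616%, 0.579% and 0.615% of a cell's gene counts, and small subunit genes 0.491%, 0.534%, 0.472% and 0.490%. The 3 stalk genes, whose proteins form the flexible arm that recruits elongation factors to the ribosome, had medians of 0.0847%, 0.0908%, 0.103% and 0.105%. Some unselected cells had no stalk count at all, while the lowest knockout gated cell had 0.0416%. The ratio of summed shares, gated over unselected, was 1.05 in both genotypes. Knockout over wild type, the ratio was 0.985 without and 0.980 with the Gpnmb and Clec7a selection.

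Against the spike-in RNAs (ERCC) added to each well the groups stood apart. Ribosomal protein counts per spike-in count had medians of 0.304, 0.506, 0.204 and 0.633. The lowest and highest cells were 0.0756 and 1.43, 0.0449 and 1.51, 0.0278 and 1.00, and 0.154 and 1.23, so the ranges overlap although the medians are ordered. The gated median was 1.66-fold the unselected one in wild type and 3.1-fold in knockout. All gene counts per spike-in count differed by about as much, 1.60-fold and 2.96-fold. Knockout over wild type, the ratios were 0.670 in unselected and 1.25 in gated cells, beside 0.728 and 1.35 for all gene counts. The sources used here do not give the amount of spike-in RNA per well, and an amount that differed between plates cannot be told apart from RNA per cell.

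**Figure D1:**
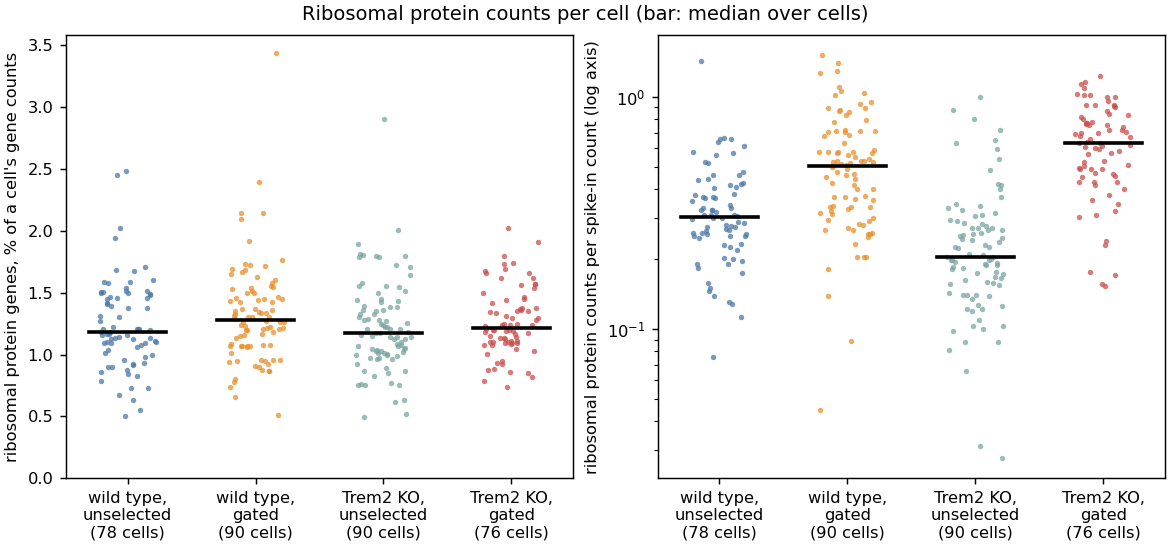
Ribosomal protein counts in each passing cell of the 4 groups, as a percent of the cell's gene counts (left) and per spike-in count (right, log axis). Points are cells and bars are medians; the medians on the left lie between 1.17% and 1.28%, those on the right between 0.204 and 0.633.

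Within each plate ribosomal protein counts scaled with the other RNA of the cell. This takes the spike-in amount as equal over the wells of a plate, which the sources used here do not state. The least-squares slope of log2 ribosomal protein counts on log2 other gene counts, both per spike-in count, was 1.11, 0.879, 1.07 and 0.968, where 1 means proportion, and Pearson's r was 0.776, 0.880, 0.877 and 0.891. Both axes share the spike-in count as denominator, which by itself raises r. The slope by the ratio of SDs, which treats both axes alike, was 1.43, 0.998, 1.22 and 1.09. The share itself showed no steady relation to gene counts per spike-in count, with Spearman's rho of 0.07, -0.12, 0.19 and -0.05 over 78, 90, 90 and 76 cells. Pearson's r of the share with log2 gene counts per spike-in count was 0.11, -0.34, 0.03 and -0.07, so the wild-type gated cells with less RNA tended to a higher share by this measure. With the cells of each group cut into 4 bins by gene counts per spike-in count, the lowest and highest bin medians of the share were 1.13% and 1.25%, 1.26% and 1.30%, 1.12% and 1.30%, and 1.20% and 1.24%. The gene counts per spike-in count of those bins ran, for example, from a median of 12.2 to 30.2 in knockout unselected cells and from 27.4 to 71.9 in knockout gated cells.

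**Figure D2:**
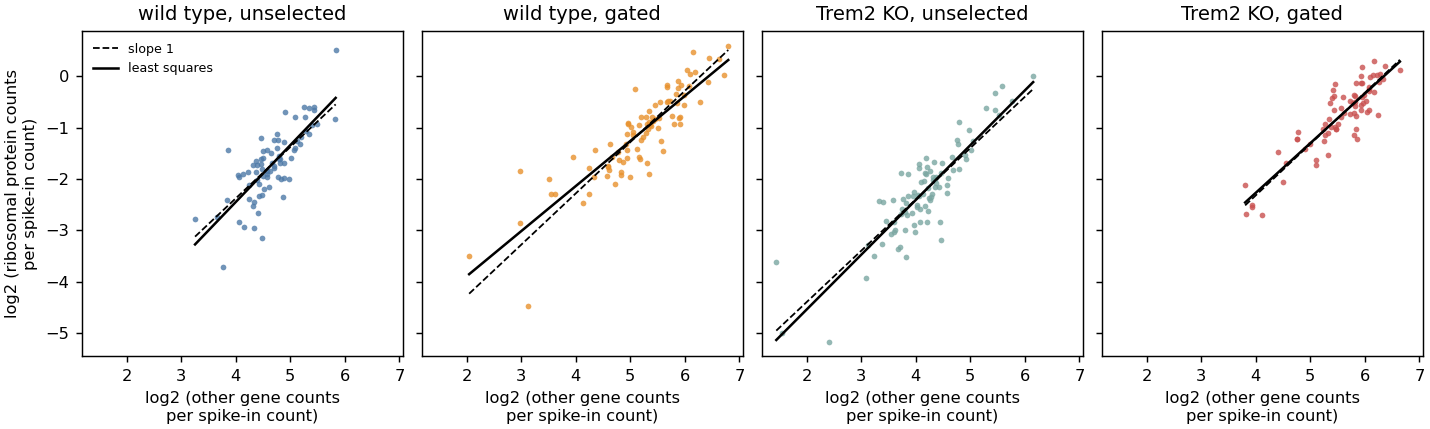
Each cell's ribosomal protein counts per spike-in count (vertical, log2) against its other gene counts per spike-in count (horizontal, log2), 1 panel a group. Solid lines are least-squares fits with slopes of 1.11, 0.879, 1.07 and 0.968, and dashed lines have slope 1 through the mean.

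Single genes of the family differed widely in counts. Rpl4 (chr9:64173375-64178666, a large subunit protein that lines the tunnel through which the new peptide leaves) led in all 4, at 860, 882, 870 and 856 CPM. In wild-type unselected cells its lowest, median and highest cells were 0, 761 and 2457 CPM, and in knockout gated cells 0, 756 and 1989 CPM. Rplp0 (chr5:115559467-115563727), which anchors the stalk to the large subunit, had 736, 713, 824 and 769 CPM. Its median cell had 619, 646, 869 and 713 CPM, and it was above 0 in every knockout gated cell, the lowest being 264 CPM. The other two stalk genes were lower, Rplp1 with 133, 182, 140 and 187 CPM and Rplp2 with 56, 65.9, 59.4 and 66.4 CPM. The 5 highest members of each group together held 24.9%, 24.4%, 26.5% and 24.5% of all ribosomal protein counts.

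Per kilobase of exon, the scale on which genes can be set beside each other, high members in wild-type unselected cells were Rpl4 (559 CPM per kb), Rplp0 (542), Rpl13 (409) and Rps18 (361). Rps18 is a small subunit protein, and Rpl13 is of the large subunit. In knockout gated cells the same genes had 557, 566, 367 and 392 CPM per kb. Ribosomal protein genes share much sequence with their pseudogenes: in 30 of 82 measured members at least 50% of the 50-base windows of the transcript also occur in another gene or pseudogene, up to 86.7% in Rps18. The sources used here do not say how reads with several matches were counted, so levels of single members are uncertain where this share is high. Across the 82 members, Spearman's rho of CPM with median transcript length was between 0.425 and 0.429 in the 4 groups, and with the share of windows in common between 0.007 and 0.046. For CPM per kilobase, the rho with the share of windows in common was higher, between 0.283 and 0.309.

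The 3 subunit genes with the lowest counts were Rpl26, Rpl30 and Rpl34, all of the large subunit. Rpl26 (chr11:68901583-68906989), which sits at the exit of the peptide tunnel, had 3.85, 4.87, 5.34 and 5.74 CPM. Its highest cells had 37.9, 40.0, 33.2 and 30.2 CPM, and at equal depth it was detected in 15.4%, 23.3%, 24.4% and 36.8% of cells. Rpl30 (chr15:34440505-34443640) had 7.80, 5.67, 6.31 and 12.8 CPM, and Rpl34 (chr3:130726831-130730398) had 8.42, 6.49, 14.3 and 3.88 CPM. The median cell was at 0 for Rpl34 in all 4 groups, and for Rpl26 and Rpl30 in all but the knockout gated group. For each of them a single cell held between 5.59% and 23.5% of a group's counts. Of their transcript windows 47.4%, 29.7% and 25.8% also occur in other genes, where the median over the 82 members is 40.2%, and the part of multiply matched reads in their low counts was not tested. Rps15a also stood low per length, at 15.9 CPM per kb in wild-type unselected cells, with 86.0 CPM over 5395 annotated exon bases.

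**Figure D3:**
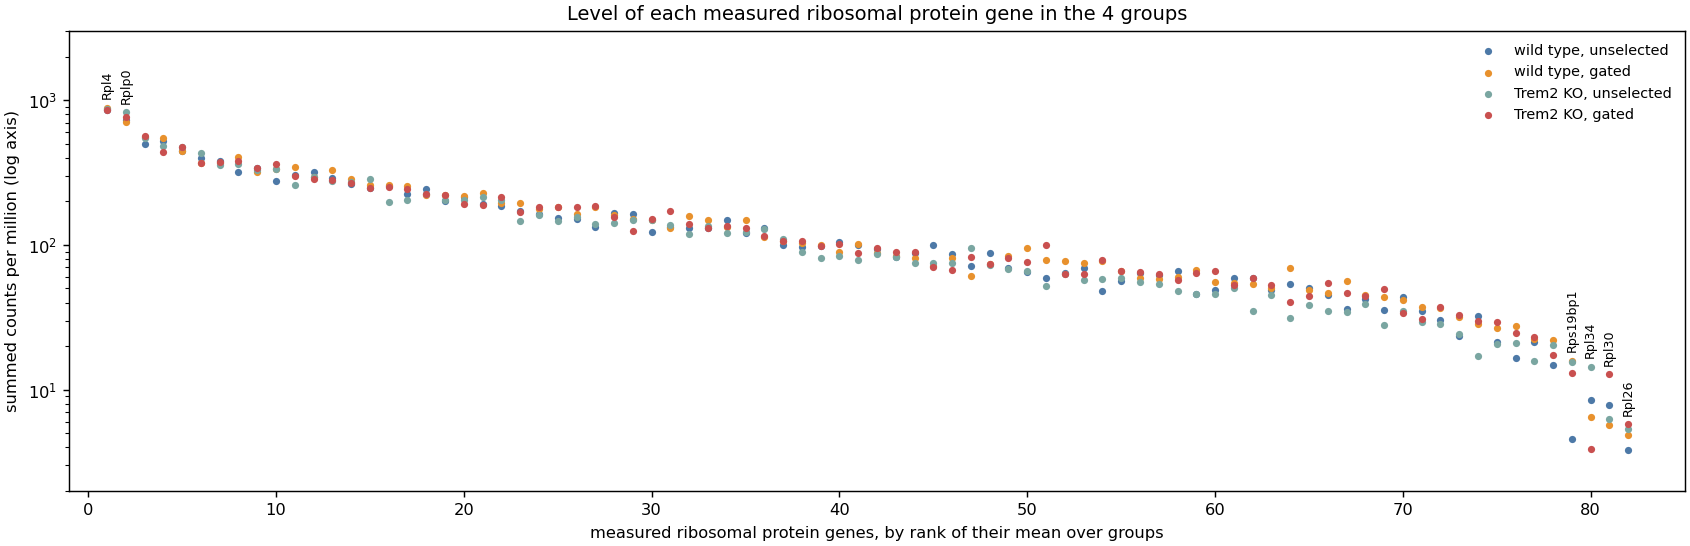
Summed CPM (log axis) of the 82 measured members in the 4 groups, ranked by their mean over groups, with 6 genes of the text labelled. Rpl4 leads at 856 to 882 CPM, and Rps19bp1, Rpl34, Rpl30 and Rpl26 stand at the low end.

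Among the paralogs, those known for heart and skeletal muscle (Rpl3l) and testis (Rpl10l) had 0 counts in all groups, which allows up to 0.0770, 0.0558, 0.0527 and 0.0594 CPM. Rpl39l, also known from testis, had 1.90, 1.92, 0.492 and 1.09 CPM, with 98.6% of the wild-type unselected counts in 1 cell. Rps27l, a paralog of Rps27 that is induced by p53, had more counts than its parent: 45.6, 66.8, 46 and 64.1 CPM against 14.9, 22.2, 20.4 and 17.4 CPM for Rps27. Per kilobase Rps27l stood at 245%, 240%, 179% and 294% of Rps27. Rpl22l1 stood at 136%, 219%, 221% and 165% of Rpl22 per kilobase, with 16.6, 27.7, 20.9 and 24.4 CPM. Per kilobase of exon Rpl36al was below its parent Rpl36a, at 73%, 55.3%, 59.7% and 41.4%. That order rests on exon lengths of 1353 bases for Rpl36al and 483 bases for Rpl36a. By counts not divided by length Rpl36al stood above Rpl36a in all groups. The median transcript length of Rpl36al is 757 bases, so the ratio depends on the length used. Of the transcript windows, 63.1% of Rps27 and 57.3% of Rpl22l1 occur in other genes, against 13.7% of Rps27l and 5.19% of Rpl22, so the ratios depend on how those reads were counted.

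The row Rps4y2 is an older symbol of Rps4l (chr6:148354656-148355598), annotated as a transcribed processed pseudogene of the Rps4x family. It had 53.8, 69, 31.3 and 40.3 CPM, against 185, 196, 205 and 216 CPM for Rps4x, a small subunit protein encoded on the X chromosome. The highest cells had 610, 556, 323 and 209 CPM of Rps4y2 while the median cell was at 0 in 3 groups, and 3.50 CPM in the knockout gated group. A count was found without thinning in 38.5%, 45.6%, 15.6% and 55.3% of cells. It was detected at equal depth in 28.2%, 40.0%, 15.6% and 46.1% of cells, and 14.9% of its windows occur elsewhere. Knockout over wild type its log2 difference was -0.77 in unselected and -0.76 in gated cells, but 2.17 in gated cells by the median CPM per cell, where the wild-type median was 0.

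The gate comparison asks what differs in Gpnmb+Clec7a+ microglia, and the genotype comparison what differs without Trem2, the receptor that many disease-associated microglial states need. Differences are log2 ratios of summed CPM plus 1, and a gene was called from 1.5-fold on, provided that its mean CPM per cell pointed the same way. Each group enters 2 of the 4 comparisons, which are therefore not independent. In wild type, 4 of 82 measured members were higher in gated cells (Rpl17, Rpl22l1, Rpl31 and Rps19bp1) and 0 were lower, while over 10554 measured genes 23% were higher and 31.4% lower. In knockout, 6 were higher in gated cells (Rpl22, Rpl23, Rpl28, Rpl30, Rps21 and Rps28) and 1 was lower (Rpl34), against 19.4% and 35.8% of all measured genes. Knockout unselected cells were higher than wild type in 2 members (Rpl34 and Rps19bp1) and lower in 3 (Rpl28, Rps21 and Rps4y2), against 26.4% and 21.3%. Knockout gated cells were higher in 1 (Rpl30) and lower in 2 (Rpl34 and Rps4y2), against 21.3% and 22% of all measured genes.

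Low counts raise the share called, so the same was read among genes with at least 20 CPM and detection in at least 50% of cells at equal depth in every group, which are 71 members and 784 other genes. Of the 71 members, 2 were called higher and 0 lower by the gate in wild type, and 3 higher and 0 lower in knockout; the 855 genes together gave 9.82% higher and 14.9% lower, and 10.4% higher and 26.4% lower. By genotype 0 were higher and 1 lower (Rpl28) in unselected cells, against 4.21% and 1.4%, and 0 and 0 in gated cells, against 3.27% and 11.8%. The median size of the log2 difference, sign left out, was 0.13, 0.18, 0.13 and 0.09 for these members in the order gate in wild type, gate in knockout, genotype without and genotype with selection. For the 784 other genes it was 0.36, 0.47, 0.19 and 0.25. By CPM, the members thus differed less across groups than other well-detected genes in all 4 comparisons, as a description of these plates. The 2 sets were not matched. Median detection in the 4 groups was 85.9%, 91.1%, 82.2% and 98.7% for the members and 73.1%, 78.9%, 65.6% and 92.1% for the others. Median CPM was 104, 106, 110 and 106 for the members and 269, 249, 278 and 229 for the others. The part of detection and level in the smaller differences was not tested. These sizes were not recomputed under another scaling. With spike-in scaling the median log2 difference for the gate in knockout was 1.47 over all measured members and 0.99 over all measured genes. A smaller difference of the members therefore holds for shares of gene counts and was not shown per spike-in count.

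Over all 82 measured members the median log2 difference between gated and unselected cells was 0.08 in wild type, with 54 members above 0 and 28 below, and 0.15 in knockout, with 59 above and 23 below. All measured genes had medians of -0.12 and -0.26, so relative to them the members stood higher by 0.20 and 0.41. This distance was smaller without cells with a count of Mki67 or Top2a, at 0.0326 and 0.27. With no minimum level for genes it was 0.0734 and 0.15. There the median of all genes was 0, so these values are only the members' own medians. Between genotypes the median was -0.08 in unselected cells (30 above, 52 below; all genes 0.05) and -0.0006 in gated cells (40 above, 42 below; all genes 0.00). With scaling to spike-ins the gate medians were 0.54 and 1.47 and the genotype medians -0.56 and 0.37, with all genes at 0.29, 0.99, -0.39 and 0.35. Large subunit genes had gate medians of 0.06 and 0.21, and small subunit genes 0.07 and 0.07. By genotype the large subunit had -0.04 and 0.01 and the small subunit -0.11 and -0.01.

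**Figure D4:**
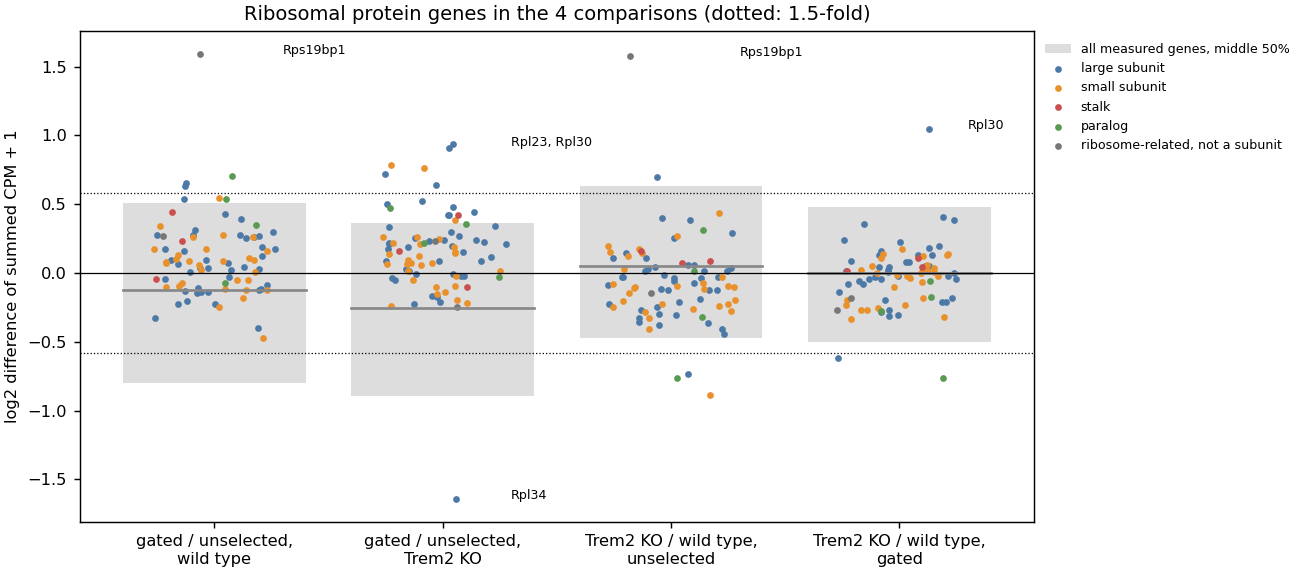
Log2 differences of the 82 measured members in the 4 comparisons, coloured by role, with the middle 50% of all measured genes as a grey box and their median as a grey line. Dotted lines mark 1.5-fold; most members lie inside them, and Rps19bp1, Rpl34 and Rpl30, all with low counts, lie farthest out.

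Rpl28, Rps21, Rps28 and Rpl23, all called by the gate in knockout, had their lowest CPM in knockout unselected cells, which both the gate comparison in knockout and the genotype comparison in unselected cells use. Rpl28 (chr7:4792874-4795066) had 59.1, 53.6, 35.2 and 58.8 CPM, a log2 difference of 0.72 for the gate in knockout and -0.73 for genotype in unselected cells. Its median cells had 48.3, 46.2, 28.3 and 58.4 CPM, and the lowest to highest cells, 0 to 255, 0 to 188, 0 to 179 and 6.95 to 146 CPM, overlap in all groups. Rps21 (chr2:180257377-180258445) had 32.4, 28.4, 17.1 and 29.6 CPM, with median cells of 20.6, 23.6, 10.2 and 27.1 CPM and log2 differences of 0.76 and -0.88 in the same comparisons. It was detected at equal depth in 48.9% of knockout unselected cells and 98.7% of knockout gated cells.

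Rps28 (chr17:33819027-33824562) had 35.6, 43.5, 28.2 and 49.3 CPM. Its gate difference was 0.79 in knockout and 0.28 in wild type. Exons of Kank3 overlap it on the other strand, and reads of the pair cannot be told apart unless strand was used. Rpl23 (chr11:97777527-97782437), a large subunit protein that also binds the p53 regulator Mdm2, had 59.5, 78.3, 51.9 and 100 CPM, with median cells of 46.3, 72.5, 48.5 and 101 CPM. Its gate difference of 0.94 in knockout is the highest of the 82 members there, and it was 0.39 in wild type.

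In wild type the well-detected members called by the gate were Rpl17 and Rpl31. Rpl17 had 48.4, 76.9, 57.9 and 79.2 CPM and gate differences of 0.66 and 0.45, and without the cells with 3 or more border macrophage markers the wild-type value was 0.54. Rpl31 (chr1:39367842-39371911) had 36.1, 56.5, 34.6 and 46.7 CPM and gate differences of 0.63 and 0.42, and 1 cell held 12.3% of its wild-type gated counts. Exons of Tbc1d8 overlap it on the other strand, and its wild-type difference was 0.53 after thinning to 100000 counts, under 1.5-fold. With a pseudocount of 10 CPM Rpl17, Rpl22l1 and Rpl31 were under 1.5-fold by the gate in wild type (0.57, 0.50 and 0.53), as were Rpl22, Rpl30 and Rps21 in knockout (0.53, 0.48 and 0.55). After thinning Rpl22 was at 0.41. Rps27 was higher in gated cells in wild type (0.55) and lower in knockout (-0.22), neither past 1.5-fold. At the other end Rps15 had gate differences of -0.47 and -0.10, at 99.8, 71.7, 75.2 and 70.0 CPM.

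Rps6, the small subunit protein phosphorylated by S6 kinases, had 163, 151, 148 and 125 CPM and gate differences of -0.12 and -0.24. Rpl5 and Rpl11, which hold Mdm2 when ribosome assembly is disturbed, had 71.8, 61.4, 95.0 and 81.9 CPM and 64.2, 58.8, 55.5 and 64.6 CPM. Rpl5 was higher in knockout in both gates, with log2 differences of 0.40 and 0.41, under 1.5-fold. Rplp1 was higher in gated cells of both genotypes by 0.45 and 0.42, while Rplp0 stood at -0.05 and -0.10, all under 1.5-fold. Of the transcript windows of Rplp1 60% occur in other genes, and a change in the proportion of the stalk genes was not tested.

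The largest differences of all belonged to genes that few cells carried. Rps19bp1, a nucleolar protein that binds Rps19 and is no subunit, had 4.57, 15.8, 15.6 and 13.0 CPM, and its log2 difference was 1.60 for the gate in wild type and 1.58 for genotype in unselected cells. A single cell held 30.9%, 20.7%, 18.5% and 10.8% of its counts, and it was detected in 14.1%, 23.3%, 18.9% and 40.8% of cells. Rpl34 had a gate difference of -1.65 in knockout from 14.3 and 3.88 CPM, with detection in 24.4% and 13.2% of cells. Its genotype difference was 0.70 in unselected and -0.62 in gated cells, the former was 0.31 after thinning and 0.29 without cells with a count of Mki67 or Top2a, and the latter was 0.30 without the cells with 3 or more border macrophage markers. Rpl30 had a genotype difference of 1.04 in gated cells from 5.67 and 12.8 CPM, with detection in 12.2% and 46.1%.

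Detection was highest in knockout gated cells. With every cell thinned to 100000 gene counts, the median measured member was found in 83.3%, 89.4%, 79.4% and 98.7% of cells. Without thinning these were 88.5%, 94.4%, 84.4% and 100%. All 10554 measured genes had medians of 17.9%, 17.8%, 13.3% and 27.6%. At least 90% of cells carried 24, 41, 22 and 67 of the 82 members, and 7, 6, 9 and 5 were in under 50%. A cell carried a median of 65, 71, 64 and 77 of the 85 genes. The lowest knockout gated cell carried 62, against 34, 44 and 28 in the lowest cells of the other groups.

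Cells with more RNA per spike-in carried more members at the same depth, and more genes in general. Spearman's rho of the number of members detected with gene counts per spike-in count was 0.45, 0.59, 0.75 and 0.62. For the number of all genes with a count, not thinned, it was 0.26, 0.51, 0.67 and 0.63. From the lowest to the highest of the 4 bins the median number went from 57 to 70, 62 to 74, 51 to 73 and 74 to 78. The groups differ in gene counts per spike-in count (medians 24.9, 39.8, 18.1 and 53.7), and the part of this in the detection of members was not tested. Among the 71 well-detected members the median CV of CPM over cells was 0.870, 0.788, 0.897 and 0.491, and among the 784 other genes 1.18, 1.09, 1.23 and 0.767, so both sets were least variable in knockout gated cells. The members were also detected in more cells than the other genes, and the part of this in their lower CV was not tested. Rpl13 had the lowest CV of the 71 in 3 groups, at 0.477 in gated wild-type cells and at 0.505 and 0.322 in the knockout groups.

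**Figure D5:**
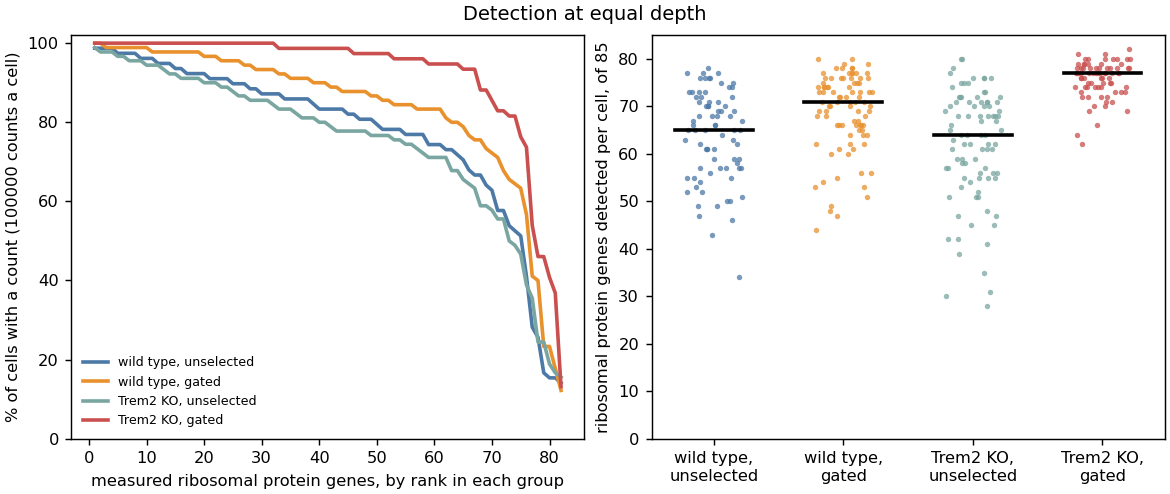
Left, percent of cells with at least 1 count of each measured member after thinning to 100000 counts, members ranked within each group. Right, number of the 85 genes detected in each thinned cell, with medians of 65, 71, 64 and 77; knockout gated cells lie highest in both.

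Across the cells of a group, members moved together more than other genes did with them. The median Pearson r of a well-detected member with the mean of the other members, on log2 CPM plus 1, was 0.35, 0.33, 0.38 and 0.38. For the 784 other genes against the member mean it was 0.21, 0.22, 0.23 and 0.18, and between 8.80% and 24.1% of them exceeded the members' median. Cells share plate, depth and RNA amount, and these values are given as a description. The members were also detected in more cells than the 784 other genes, and the part of this in r was not tested. Rps2, a small subunit protein, had the steadiest link, with 0.40, 0.46, 0.46 and 0.54, followed by Rpl9 with 0.47, 0.38, 0.46 and 0.38. Rpl27 had 0.38, 0.25, 0.08 and 0.41.

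The 10 genes outside the symbol rule whose lowest r over the 4 groups was highest were Nme2, Ldha, Gapdh, Eef1g, Cct8, Rpsa, Gng5, Fau, Cox5b and Tmem9b. Nme2, a nucleoside diphosphate kinase, had 0.39, 0.53, 0.42 and 0.48, and the glycolytic enzymes Ldha and Gapdh had 0.36, 0.36, 0.39 and 0.37, and 0.35, 0.41, 0.45 and 0.56. Rpsa and Fau encode ribosomal proteins that the symbol rule leaves out, and Eef1g is a translation elongation factor. Gnb2l1, the older symbol of the small subunit scaffold Rack1, had 0.06, 0.28, 0.27 and 0.42.

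Of these components, Rpsa and Fau differed by under 1.5-fold in all 4 comparisons. Rpsa had 252, 285, 297 and 342 CPM, and Fau 130, 151, 106 and 134 CPM. Gnb2l1 had 411, 267, 288 and 340 CPM and was lower in wild-type gated cells, with a log2 difference of -0.62.

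Genes that work with ribosomes were read by the same rule. Of 16 elongation factors and other TOP mRNAs, 0 were higher and 2 lower by the gate in wild type and 1 higher and 2 lower in knockout. By genotype 3 were higher and 1 lower in unselected cells, and 1 higher and 0 lower in gated cells. For this list and those that follow, the shares of all measured genes called higher and lower were 23% and 31.4% by the gate in wild type, 19.4% and 35.8% in knockout, 26.4% and 21.3% by genotype in unselected cells, and 21.3% and 22% in gated cells. Eef2, which moves the ribosome along the mRNA, was the gene higher in knockout in both gates, at 360, 432, 599 and 668 CPM (log2 differences 0.73 and 0.63). Tpt1, a growth-related TOP mRNA, was higher in knockout gated cells by 0.70 at 99.5, 116, 97.6 and 159 CPM. Eif4a2, a helicase of the initiation complex, was lower in gated cells of both genotypes, by -1.15 and -1.19 from 209, 94.0, 175 and 75.7 CPM.

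Of 21 measured ribosome biogenesis genes, 2 were higher and 8 lower by the gate in wild type and 0 higher and 5 lower in knockout, with median log2 differences of -0.36 and -0.35 where all genes had -0.12 and -0.26. By genotype 4 were higher and 3 lower in unselected cells, and 3 and 3 in gated cells. These counts are near or below the shares of all measured genes. Nop56, a core protein of the box C/D particles that modify ribosomal RNA, had 295, 64.8, 192 and 57.6 CPM, or gate differences of -2.17 and -1.72. It was detected at equal depth in 57.7%, 24.4%, 44.4% and 47.4% of cells, so in knockout the detection was not lower where the level was. Fibrillarin (Fbl), the methyltransferase of the same particles, had 26.8, 13.8, 16.5 and 10.2 CPM, with gate differences of -0.91 and -0.64.

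Of 14 genes that tie translation to growth and stress signals, 3 were higher and 2 lower by the gate in wild type, 0 and 3 in knockout, 1 and 0 by genotype in unselected cells, and 0 and 3 in gated cells, again near or below those shares. Myc, a transcription factor that drives ribosome production, was lower in gated cells of both genotypes, at 141, 79.2, 120 and 45.8 CPM (-0.82 and -1.38). Mtor, the kinase above TOP mRNA translation, had 15.5, 16.1, 23.6 and 13.5 CPM. Eif4ebp1, a repressor of cap-dependent initiation, was higher in wild-type gated cells (28.9 and 60.2 CPM, 1.03). A single cell held 14.4%, 20.0%, 19.1% and 13.6% of the Myc counts.

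Shares of cell subsets within a group overlapped. Cells with a thinned count of Mki67 or Top2a, markers of the cell cycle, numbered 31, 19, 36 and 28 and had median shares of 1.16%, 1.33%, 1.19% and 1.33%, beside 1.21%, 1.26%, 1.17% and 1.18% in the remaining cells. Cells with counts of 3 or more border macrophage markers, read without thinning, numbered 1, 23, 4 and 26. In the wild-type gated group their median share was 1.43%, beside 1.24% in the 67 other cells, and in the knockout gated group 1.20%, beside 1.25% in the 50 other cells. These marker cells also carried more genes, with medians of 3790 beside 2872 (wild-type gated) and 4933.5 beside 3626 (knockout gated). Cells with a count of Mki67 or Top2a carried more genes than the remaining cells in all groups. Without the border macrophage marker cells the median log2 gate difference over members was 0.00915 in wild type and 0.18 in knockout. All measured genes then had medians of -0.15 and -0.25. The members thus stood higher than all genes by 0.16 and 0.43, beside 0.20 and 0.41 with all passing cells.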

How the data were processed

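The authors deposited raw counts per gene for single cells. The submitters' processing notes name HTSeq, Picard, STAR 2.5.3a and Trim Galore 0.4.3, and build mm10; the annotation, the strand setting and the handling of multiply matched reads were not given in the sources. Groups came from the labels, and cells had to pass all 3 quality criteria. The 92 spike-in rows stayed out of library sizes. Counts were summed per group and scaled to CPM; differences are log2 ratios with 1 CPM added, which understate differences of low genes. Each group is 1 sample, so no model was fitted and no p-value computed. No doublets were called. Thinning drew 100000 gene counts per cell; 0 passing cells had fewer. Coordinates and exon lengths are from GENCODE M21 on the same build, matched by symbol, and start regions from RefSeq. The members and lists were chosen with earlier results of these data known. The naming rule covers the 5 highest and lowest members per length, the 4 highest and lowest differences per comparison at 20 CPM or more, members under 50% detection in all groups, paralogs and parents, stalk genes, Rps6, Rpl5 and Rpl11, the ribosome components outside the symbol rule, up to 4 genes per other list by size of difference, and the 10 most correlated other genes. Examples were taken from these, and some genes that the rule names are not reported here; Rps2, Rpl9, Rpl27 and Fbl were named after their values were seen. The difference step was run on simulated cells with 4-fold changes in genes with high counts, without the rule on mean CPM per cell. That run does not show how well 1.5-fold changes or genes with low counts are recovered. Software was Python 3.11.15, NumPy 2.4.6, pandas 2.3.3, SciPy 1.17.1, Matplotlib 3.10.9, R 4.3.3 and edgeR 4.0.16 (TMM factors only).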

Additional observations from a re-analysis of the deposited data

Results flagged for a closer look

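Rpl34 differed between genotypes in opposite directions in the 2 gates, with a log2 difference of 0.70 in unselected cells and -0.62 in gated cells. The difference between the gates was not tested, and Rpl34 had 3.88 to 14.3 CPM and was detected in at most 24.4% of cells at equal depth. Cells that failed the quality criteria, which enter no comparison, also held ribosomal protein counts. Their summed share of gene counts was 1.17% over 12 wild-type unselected cells, 1.47% over 3 wild-type gated cells, 1.4% over 3 knockout unselected cells and 1.91% over 17 knockout gated cells.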

How the results depend on the processing

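Of the recomputed values of the main results, 110 stayed within the 95% interval of the main median or correlation (for counts, within 1.5 times) and 50 did not; the alternatives to the correlations of share with RNA and of members with each other, the latter with thinned cells and chosen after seeing the data, all stayed within. Leaving the 20 most abundant other genes out of the denominator gave median shares of 1.68%, 1.94%, 1.58% and 1.83%, and leaving out Rn45s, an alternative chosen after seeing the data, 1.43%, 1.54%, 1.36% and 1.42%. Median log2 differences of members (gate in wild type, gate in knockout, genotype unselected, genotype gated) were 0.54, 1.47, -0.56 and 0.37 with spike-in scaling, 0.26, 0.42, -0.13 and 0.0404 with TMM, and 0.23, 0.40, -0.14 and 0.0294 with median-of-ratios scaling. They were 0.31, 0.00 and 0.10 by median CPM per cell in the last 3 comparisons. Without border macrophage marker cells they were 0.00915 for the gate in wild type and 0.0369 for genotype in gated cells. Without cycling cells they were -0.15 and -0.0811 for the 2 genotype comparisons. Genotype in gated cells gave -0.0463 after thinning, and genotype in unselected cells -0.12 when scaled without Rn45s, also chosen after seeing the data. Members at 1.5-fold or more, 4, 7, 5 and 3 in the report, numbered 34, 81, 39 and 6 with spike-in scaling. By the gate in wild type and in knockout they were 9 and 19 with TMM, 8 and 18 with median-of-ratios, 12 and 21 by median CPM per cell, and 1 and 4 with a pseudocount of 10 CPM. The gate in wild type gave 7 without cycling cells. Genotype in gated cells gave 9 by median CPM per cell, 1 with a pseudocount of 10 CPM and 1 with a minimum of 20 CPM, and genotype in unselected cells gave 3 with that minimum. Called genes changed sign in gated cells between genotypes: Rps4y2 was at 2.17 by median CPM per cell, where the wild-type median was 0, and Rpl34 at 0.30 without border macrophage marker cells. Median detection was 88.5% and 94.4% without thinning in the wild-type groups, and 72.8% and 94.7% at 50000 counts in the knockout groups. Counts of single low members limit what can be read of them. Leaving out a replicate was not done, since each group is 1 sample. No paired analysis was possible because no group has replicates and no label pairs cells.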
